A study of Mus musculus with 12 samples.

Results

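The 10 genes followed here through 12 mouse livers were *Hif1a*, *Vegfa*, *Adm*, *Egln1*, *Egln3*, *Bnip3*, *Ankrd37*, *Slc2a1*, *Hk2* and *Pfkfb3*. They were chosen by name as components or textbook targets of the hypoxia response and of the switch toward glycolysis. Earlier results of these data were known when the choice was made. Each symbol matched 1 row, so that 10 of the 45777 genes in the table were used. The livers came from C57BL/6 mice aged 10-12 weeks by the labels (males of 8 to 12 weeks in the study's methods) in 4 groups of 3. These were WT littermates given vehicle, WT mice given acetaminophen (APAP), mice labelled Gα12-/- (*Gna12* KO) given vehicle, and mice labelled Gα12-/- given APAP. APAP is a painkiller that injures the liver in overdose. By the study's methods, mice were fasted overnight before a single intraperitoneal dose of 300 mg/kg, and the livers were taken 6 h later. Whether the vehicle mice were also fasted is not stated there. The study asked how the loss of Gα12, a G protein subunit, alters the response of the liver to APAP.

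Hypoxia-inducible factor (HIF) is a pair of proteins, an oxygen-sensitive α subunit such as HIF-1α, encoded by *Hif1a*, and a stable partner encoded by *Arnt*. In the presence of oxygen, the prolyl hydroxylases encoded by *Egln1* to *Egln3* mark the α subunit for destruction through VHL, so that much of the control of HIF-1α lies in the protein rather than in its mRNA. When oxygen falls, HIF binds short DNA elements and raises genes for vessel growth, glucose uptake and glycolysis. Healthy hepatocytes take up glucose mainly through the transporter GLUT2, whereas GLUT1 (*Slc2a1*) and hexokinase 2 (*Hk2*) are the forms of many other cells, and oxygen declines from the portal to the central vein, around which APAP is activated and does its damage.

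The core of the HIF element reads ACGTG or GCGTG, and both were searched on either strand in the RefSeq promoter windows (GRCm38.p6), which run from 250 bases before to 50 after each annotated start. All 10 genes matched, with 12 windows. ACGTG was present in 9 of the 10 genes (90%), against 27.9% of the 12160 tested genes with a window and 21.8% of all 27025 genes with a window. GCGTG was present in 7 of the 10, against 51.4% and 35.2%. The windows of the 10 genes were 54.7% to 86% G or C, and their base composition was not compared with that of the other windows. The letters ACGTG occur on both strands wherever the window reads CACGTG, and overlapping matches were each counted once per gene. *Adm* was the gene without ACGTG. *Vegfa* counted for both motifs only through a window inside its annotated span (chr17:46025114-46025413). Its other window, at the upstream end of the gene (chr17:46032328-46032627), held neither motif. The following 45-base stretches upstream of the start are shown because they carry the motif in genes whose mRNA rose with APAP (*Slc2a1*, *Hif1a*, *Adm*) and in genes whose mRNA did not pass the test (*Bnip3*, *Hk2*). They are written along the strand of the gene with the motif in capitals.
Slc2a1, chr4:119108689-119108733, plus strand, ACGTG 36 bases before the start: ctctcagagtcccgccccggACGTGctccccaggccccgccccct
Hif1a, chr12:73907777-73907821, plus strand, ACGTG 70 bases before the start: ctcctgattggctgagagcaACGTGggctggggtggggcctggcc
Adm, chr7:110627583-110627627, plus strand, GCGTG on the opposite strand 54 bases before the start: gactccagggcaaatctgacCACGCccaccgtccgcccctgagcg
Bnip3, chr7:138909589-138909633, minus strand, ACGTG 107 bases before the start: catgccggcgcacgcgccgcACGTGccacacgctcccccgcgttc
Hk2, chr6:82774482-82774526, minus strand, ACGTG on the opposite strand 52 bases before the start: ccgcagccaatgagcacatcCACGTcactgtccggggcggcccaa

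The stretches of *Slc2a1*, *Adm*, *Bnip3* and *Hk2* lie just outside the annotated genes. That of *Hif1a* lies inside its annotated span (chr12:73901324-73947554), since RefSeq also gives a start further upstream. A match of these letters is a description of the window and does not show that HIF binds there. In these data the motif stood before genes that rose and before genes that did not pass the test alike.

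The files held between 49737950 and 69566079 counted reads per liver. The liver markers were as labelled, with *Alb* at 31824 to 64825 TPM (reads scaled to transcript length and then to the library) and the leukocyte gene *Ptprc* at 0.488 to 2.43 TPM. *Gna12*, the targeted gene, was counted between 2472 and 4003 times in livers labelled KO and between 1193 and 4373 times in WT livers, and the groups are named by their labels throughout. Which part of the gene is deleted is not given in the sources used here, so these counts do not check the label. WT APAP replicate 1 stood apart: its erythroid markers summed to 17085 CPM (counts scaled to the library total), against 252 to 750 in the other 11 livers, its neutrophil markers to 130 CPM against 1.62 to 23.2, and its scaling factor (0.762) was the lowest. Several values of the 10 genes that this liver moved strongly are given with and without it. The 10 pericentral hepatocyte markers summed to between 10149 and 11864 CPM in the 6 vehicle livers and to between 4044 and 6893 CPM in the 6 APAP livers, and 8 of the 10 were lower. Over both labels, of the 10 endothelial markers 4 were higher (*Cdh5*, *Pecam1*, *Lyve1* and *Stab1*), of the 10 stellate cell markers 1 was lower (*Lrat*), of the 7 neutrophil markers tested 1 was higher (*Cxcr2*) and of the 10 periportal markers 3 were lower (*Hal*, *Pck1* and *Gls2*). None of the 10 Kupffer cell or 7 tested erythroid markers passed, and 14.0% of all genes were higher and 11.4% lower. In the livers labelled KO 1 endothelial marker was higher (*Lyve1*) and 2 lower (*Kdr* and *Oit3*), and 3 stellate cell markers were lower (*Col3a1*, *Col1a1* and *Lrat*), whereas in WT 1 endothelial marker was higher (*Lyve1*). Of the 10 Kupffer cell markers, 9 had a negative log2 fold change under the KO label and 9 a positive one in WT, with none called in either. In whole liver, fewer cells of a type and less RNA per cell cannot be told apart, and the part of these cell markers in the values below was not tested.

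In vehicle livers the 10 genes spanned a wide range of mRNA levels per transcript length. *Bnip3*, which encodes a mitochondrial protein of the cell death and mitophagy machinery, stood highest at 221 ± 19.2 TPM (SD, n = 6). *Vegfa*, which encodes the growth factor of blood vessels, followed at 72.2 ± 10.9 TPM, and the ranges of the 2 genes did not overlap. *Egln1* (11.8 ± 2.21 TPM), *Pfkfb3* (9.36 ± 4.70), *Hif1a* (9.0 ± 1.44) and *Slc2a1* (7.92 ± 1.86) formed a middle tier in which each overlapped the next. *Egln3* (3.01 ± 0.891), *Adm* (1.20 ± 0.355) and *Ankrd37* (0.647 ± 0.228) were lower and also overlapped their neighbours in this tier. *Hk2* was the lowest at 0.190 ± 0.0911 TPM, below the range of *Ankrd37*. Depth sets how finely the rare transcripts can be read: *Ankrd37* rested on 13 to 42 counts per liver, *Hk2* on 22 to 82 and *Adm* on 35 to 481, whereas *Bnip3* and *Vegfa* had at least 6025.

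After APAP, 4 of the 10 genes rose in the livers labelled KO and over both labels together: *Hif1a*, the HIF-1α subunit, *Slc2a1*, the glucose transporter GLUT1, and the secreted factors *Vegfa* and *Adm*. None of the 10 fell by the test. Under the KO label these 4 of 10 compare with 13.0% of the 15665 genes tested that were higher and 9.60% that were lower, by edgeR's quasi-likelihood test with an adjusted p under 0.05 (Benjamini-Hochberg adjustment over all genes). Over both labels they compare with 14.0% of 16509 genes higher and 11.4% lower (2307 and 1880 genes). With limma on quantile-normalized TPM that balance turned to 1944 and 2447 at the larger pseudocount and 2000 and 2455 at the smaller. In WT livers 0 of the 10 passed edgeR's test, where 1.62% of 15693 genes were higher and 0.427% lower. In WT, 5 of the 10 had an unadjusted p under 0.05, where 18% of all genes tested did. DESeq2's Wald test called 3 there (*Hif1a*, *Adm* and *Slc2a1*), and over the whole table it called 877 genes higher and 536 lower. The fit over both labels uses the same livers as the comparisons within each label and is not independent of them. The median log2 fold change of the 10 genes was 0.85 in WT, 0.53 under the KO label and 0.60 over both, beside 0.03, -0.02 and 0.01 for all genes tested.

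**Figure D1:**
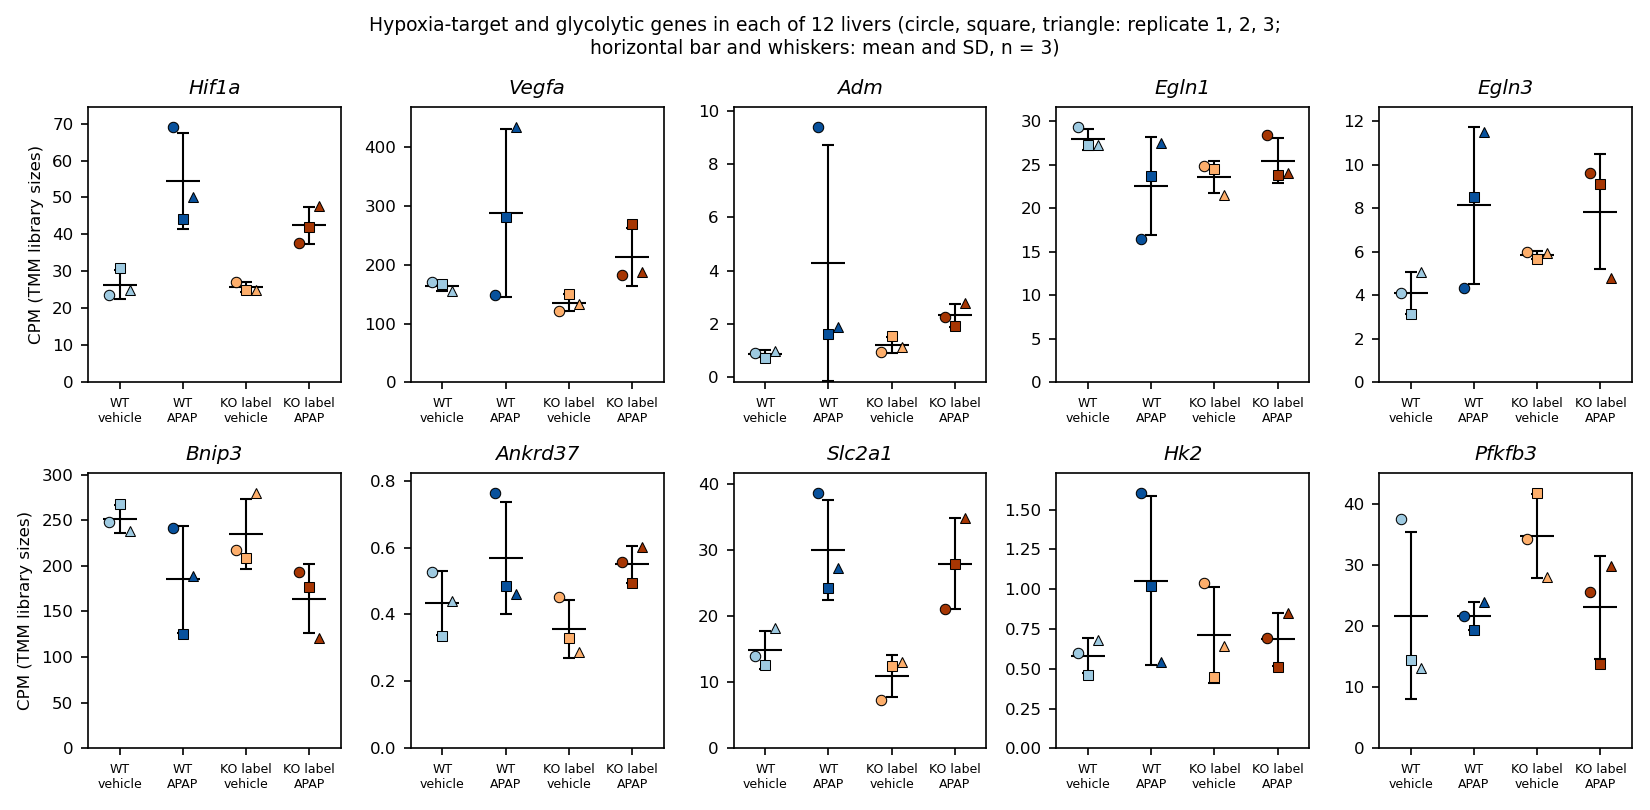
CPM of each of the 10 genes (vertical axis, TMM-scaled, one panel per gene) in the 3 livers of each group, with replicates as circle, square and triangle and the mean and SD as a bar with whiskers. *Hif1a*, *Adm* and *Slc2a1* show every APAP liver above every vehicle liver, while WT APAP replicate 1 stands far above the other livers for *Adm* (9.40 CPM) and lowest of the WT APAP livers for *Vegfa*, *Egln1* and *Egln3*.

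*Hif1a* (gene ID 15251, chr12:73901324-73947554) was measured at 23.6, 30.9 and 24.9 CPM in replicates 1 to 3 of WT with vehicle and at 69.0, 44.2 and 50.1 CPM in the WT APAP livers. In livers labelled KO it was at 27.3, 25.1 and 25.0 CPM with vehicle and at 37.7, 42.1 and 47.7 CPM with APAP. All 6 APAP livers lay above all 6 vehicle livers. The log2 fold change over both labels was 0.89 ± 0.13 (SE; edgeR's adjusted p = 0.000464), a 1.85-fold rise. Under the KO label it was 0.73 ± 0.12 (adjusted p = 0.00581), and both calls held under each of the alternative settings and with any 1 liver left out. In WT the log2 fold change was 1.06 ± 0.22 and missed the threshold (adjusted p = 0.0623). It passed there without WT APAP replicate 2 (adjusted p = 0.0484), with DESeq2's Wald test (0.00257) and in a fit of all 12 livers (0.0059), and without WT APAP replicate 1 it was 0.83 (0.075).

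The hydroxylases that mark HIF-1α for destruction did not pass the test. *Egln1* (chr8:124908587-124949254), the main oxygen sensor of HIF-1α, was at 29.3, 27.3 and 27.2 CPM in WT vehicle livers and 16.5, 23.8 and 27.5 CPM in WT APAP livers. With the KO label it was at 24.9, 24.5 and 21.5 CPM with vehicle and 28.4, 23.9 and 24.0 CPM with APAP. The APAP and vehicle livers overlapped under each label, and the log2 fold change over both was -0.10 with a 95% interval from -0.38 to 0.18 (edgeR's adjusted p = 0.618). *Egln3* (chr12:54178981-54203874), the hydroxylase that is itself a HIF target, was at 4.12, 3.15 and 5.08 CPM in WT vehicle livers and 4.36, 8.53 and 11.5 CPM in WT APAP livers. The livers labelled KO had it at 5.98, 5.65 and 5.93 CPM with vehicle and 9.62, 9.14 and 4.80 CPM with APAP. In each label 2 of the 3 APAP livers exceeded all vehicle livers and the other lay among or below them. Over both labels its log2 fold change was 0.70 ± 0.25 (edgeR's adjusted p = 0.0517), just outside the threshold. It passed without KO APAP replicate 3 (0.86, adjusted p = 0.0162) and without WT APAP replicate 1 (0.82, 0.0173), with DESeq2's size factors (0.0484) or Wald test (0.0209), and with a minimum of 10 counts in every library (0.0463). Under the KO label alone it was 0.44 (0.255), and 0.70 without KO APAP replicate 3 (0.0238).

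*Vegfa* (chr17:46016993-46032377) was at 170, 166 and 155 CPM in WT vehicle livers and at 148, 281 and 433 CPM in WT APAP livers. With the KO label it was at 121, 151 and 133 CPM with vehicle and at 182, 270 and 188 CPM with APAP. The livers labelled KO did not overlap between treatments, whereas WT APAP replicate 1 fell below all 3 WT vehicle livers. The log2 fold change was 0.74 ± 0.21 over both labels (edgeR's adjusted p = 0.0198), 0.67 ± 0.18 under the KO label (0.0319) and 0.82 ± 0.35 in WT, where it did not pass (0.277). Without WT APAP replicate 1 the WT value was 1.12 (0.0698), and without WT APAP replicate 3 it was 0.40 (0.583). The call over both labels was lost without KO APAP replicate 2 (0.65, adjusted p = 0.051) and with limma on the deposited TPM values (0.0646 and 0.0659 at the 2 pseudocounts). The call under the KO label was lost without KO APAP replicate 2 (0.46, 0.0617) or without KO vehicle replicate 1 (0.0888), 2 (0.0682) or 3 (0.0906), and in the fit of all 12 livers (0.17).

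*Adm* (chr7:110627657-110629820) encodes adrenomedullin, a peptide that widens blood vessels. It was at 0.921, 0.735 and 0.999 CPM in WT vehicle livers and at 9.40, 1.61 and 1.88 CPM in WT APAP livers. In mice with the KO label it was at 0.941, 1.54 and 1.13 CPM with vehicle and at 2.26, 1.94 and 2.80 CPM with APAP. All 6 APAP livers were above all 6 vehicle livers, and WT APAP replicate 1 was far above the other APAP livers. The log2 fold change over both labels was 1.62 ± 0.44 (edgeR's adjusted p = 0.0173), and without WT APAP replicate 1 it was 0.97 (0.00228). The call over both labels was lost with limma on log2(TPM + 1) (0.0564), and DESeq2's Wald test gave no adjusted p. In WT it was 2.3 ± 0.71 and did not pass (0.148), and without WT APAP replicate 1 it was 0.97 (0.163). Under the KO label it was 0.97 ± 0.27 (0.0367), a call that was lost without KO APAP replicate 1 (0.0792) or 3 (0.12), without KO vehicle replicate 1 (0.0928) or 3 (0.097), with the replicate number as a block (0.0717) and in the fit of all 12 livers (0.293).

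*Bnip3* (chr7:138890836-138909506) was the gene with the clearest values in the downward direction, although it did not pass the test. It was at 248, 268 and 238 CPM in WT vehicle livers and at 242, 125 and 189 CPM in WT APAP livers. Among livers labelled KO it was at 217, 208 and 279 CPM with vehicle and at 193, 177 and 121 CPM with APAP. The livers labelled KO did not overlap between treatments, and in WT only replicate 1 of the APAP livers lay within the vehicle range. Over both labels the log2 fold change was -0.47 ± 0.17 (edgeR's adjusted p = 0.0575). It passed without WT APAP replicate 1 (-0.58, 0.0155), with DESeq2's Wald test (0.035) and with limma on TPM (0.0249 and 0.0342), and in no other setting. *Ankrd37* (chr8:45996908-46000414), an ankyrin repeat protein known as a hypoxia-induced transcript, was at 0.526, 0.336 and 0.440 CPM in WT vehicle livers and 0.762, 0.484 and 0.461 CPM in WT APAP livers. In livers labelled KO it was at 0.454, 0.331 and 0.287 CPM with vehicle and at 0.556, 0.493 and 0.603 CPM with APAP. The livers labelled KO did not overlap and the WT livers did. Its log2 fold change over both labels was 0.50 ± 0.25 (edgeR's adjusted p = 0.164), and under the KO label 0.62 ± 0.34 (0.227), where limma on TPM called it higher (lowest adjusted p = 0.0338). In WT its log2 fold change of 0.40 became 0.11 without WT APAP replicate 1, with neither called.

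*Slc2a1* (chr4:119108745-119137330) was at 13.9, 12.6 and 18.1 CPM in WT vehicle livers and at 38.6, 24.2 and 27.3 CPM in WT APAP livers. The livers labelled KO had it at 7.32, 12.4 and 13.1 CPM with vehicle and at 21.1, 27.9 and 34.9 CPM with APAP. All 6 APAP livers were above all 6 vehicle livers. The log2 fold change was 1.19 ± 0.19 over both labels (edgeR's adjusted p = 0.000741), a 2.28-fold rise, and 1.36 ± 0.25 under the KO label (0.00776), and both calls held under each of the alternative settings and with any 1 liver left out. In WT it was 1.03 ± 0.24 (0.0806), 0.79 without WT APAP replicate 1 (0.108), and was called by DESeq2's Wald test (0.00812) and in the fit of all 12 livers (0.0358).

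The enzymes of the glycolytic switch among the 10 genes did not pass the test, and their difference from *Slc2a1* was not tested. *Hk2* (chr6:82725025-82774454), the hexokinase of muscle and proliferating cells, was at 0.602, 0.462 and 0.679 CPM in WT vehicle livers and at 1.60, 1.02 and 0.540 CPM in WT APAP livers. With the KO label it was at 1.04, 0.448 and 0.641 CPM with vehicle and at 0.696, 0.509 and 0.847 CPM with APAP. The groups overlapped under each label, and the log2 fold change over both was 0.40 with a 95% interval from -0.31 to 1.11 (edgeR's adjusted p = 0.414). It was 0.87 ± 0.48 in WT (0.386) and -0.05 ± 0.40 under the KO label (0.94). With 1 liver left out, the WT value ran from 0.42 to 1.19. *Pfkfb3* (chr2:11471430-11554071), which makes the allosteric activator of phosphofructokinase, was at 37.5, 14.5 and 13.1 CPM in WT vehicle livers and at 21.7, 19.4 and 23.9 CPM in WT APAP livers. In mice with the KO label it was at 34.3, 41.7 and 28.0 CPM with vehicle and at 25.6, 13.7 and 29.9 CPM with APAP. The groups overlapped here too, and the vehicle livers alone spanned 13.1 to 41.7 CPM. Its log2 fold change over both labels was -0.29, with a 95% interval from -0.88 to 0.29 (edgeR's adjusted p = 0.466). It was 0.01 ± 0.39 in WT (0.994) and -0.58 ± 0.27 under the KO label (0.16).

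**Figure D2:**
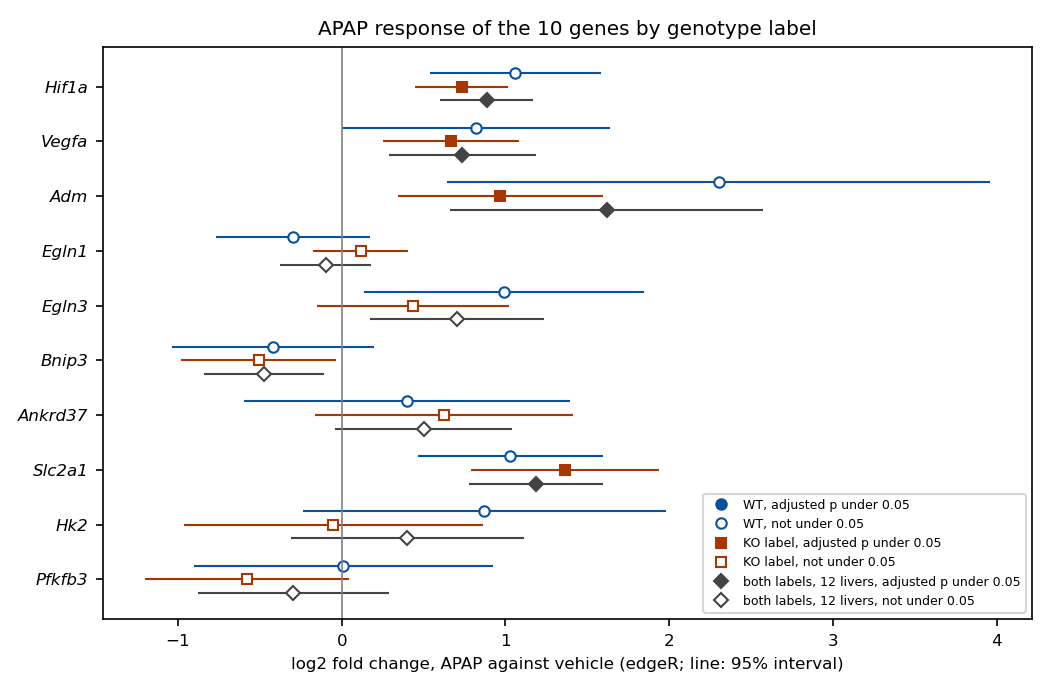
Log2 fold change of APAP against vehicle (horizontal axis) for each of the 10 genes in WT, under the KO label and over both labels, with 95% intervals from edgeR and filled symbols for an adjusted p under 0.05. *Hif1a*, *Vegfa*, *Adm* and *Slc2a1* are filled under the KO label and over both labels, no WT symbol is filled, and the intervals of WT and the KO label overlap for each gene.

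Counted by groups that do not overlap, in WT 3 of the 10 genes were higher after APAP and 0 lower, where 13.0% of all genes tested were higher and 11.9% lower. Under the KO label 5 were higher and 1 lower (21.6% and 21.3% of all genes). Over both labels 3 were higher and 0 lower (7.07% and 5.38%). The 3 that were higher in both labels were *Hif1a*, *Adm* and *Slc2a1*, the KO label added *Vegfa* and *Ankrd37*, and the 1 that was lower there was *Bnip3*.

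The genotype label made no difference that passed the test for any of the 10 genes. After APAP 0 of the 10 differed between WT and the KO label, where edgeR called 0.0309% of 16174 genes in either direction. Of the 10, 0 had an unadjusted p under 0.05, against 3.31% of all genes tested. With vehicle 0 of the 10 differed, where 0.0262% of 15262 genes did, and 1 had an unadjusted p under 0.05 (7.56% of all genes). The interaction of label and treatment was called for 0 of the 10 genes and for 0% of 16509 genes. Here 0 of the 10 had an unadjusted p under 0.05, against 5.14% of all genes. DESeq2's Wald test also called 0 of the 10 in each of these comparisons. The intervals of the interaction were wide. For *Hif1a* the APAP response in WT minus that under the KO label was 0.33 on the log2 scale with a 95% interval from -0.23 to 0.88. For *Slc2a1* it was -0.33 (-1.15 to 0.49), for *Vegfa* 0.15 (-0.78 to 1.09), and for *Adm* 1.33 (-0.42 to 3.08). With 3 livers per group, these intervals do not exclude a sizeable difference between the labels. No gene of the 10 was free of overlap between the labels after APAP (3.96% of all genes were higher in WT and 4.58% lower). With vehicle, *Vegfa* and *Egln1* were higher in all 3 WT livers than in all 3 livers labelled KO and *Egln3* was lower, where 6.62% and 7.42% of all genes did so. Their log2 differences, WT minus the KO label, were 0.28 ± 0.13, 0.24 ± 0.12 and -0.51 ± 0.21 (edgeR's adjusted p = 0.68, 0.692 and 0.647).

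The 3 WT APAP livers were spread widely for several of the genes. Relative to the mean of the WT vehicle livers, WT APAP replicate 1 was highest of the 3 for *Hif1a* (1.42 on the log2 CPM scale), *Adm* (3.39), *Bnip3* (-0.03), *Ankrd37* (0.81), *Slc2a1* (1.42) and *Hk2* (1.45). It was lowest for *Vegfa* (-0.12), *Egln1* (-0.73) and *Egln3* (0.13), which stood at 1.41, -0.02 and 1.51 in replicate 3. The places at the top depended on the scaling. In the deposited TPM values replicate 1 was lowest of the 3 for *Hif1a* (14.9, against 18.0 and 17.6 in replicates 2 and 3). The same held for *Slc2a1* (15.2, against 17.3 and 17.5) and *Ankrd37* (0.799, against 0.949 and 0.829). It was in the middle for *Bnip3* and *Hk2*, highest for *Adm* (6.81) and again lowest for *Vegfa*, *Egln1* and *Egln3*. WT APAP replicate 1 is the liver with the high erythroid and neutrophil markers, and their part in these values was not tested. The livers labelled KO were closer together for *Hif1a* (0.56 to 0.88), *Adm* (0.71 to 1.21) and *Egln1* (0.01 to 0.28), while *Pfkfb3* spread from -1.31 to -0.21 and *Egln3* from -0.30 to 0.72.

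**Figure D3:**
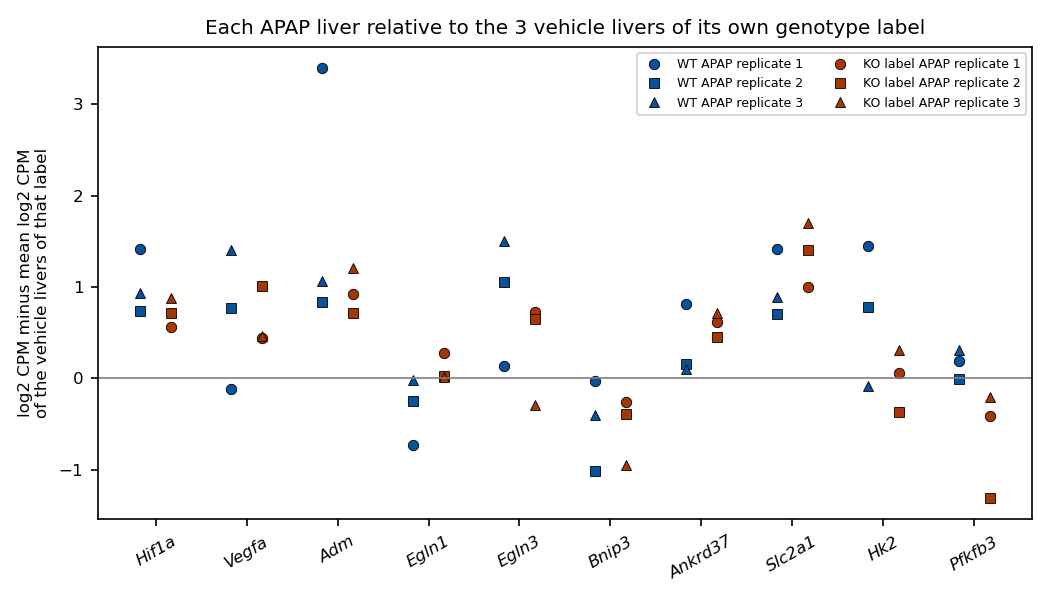
Each APAP liver relative to the mean of the 3 vehicle livers of its own label (vertical axis, difference in log2 CPM) for the 10 genes, WT in blue and the KO label in brown, replicates 1 to 3 as circle, square and triangle. All 6 livers lie above 0 for *Hif1a*, *Adm*, *Ankrd37* and *Slc2a1* and below 0 for *Bnip3*, and WT APAP replicate 1 lies at 3.39 for *Adm*.

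Across livers the levels of *Hif1a*, *Slc2a1* and *Adm* ran together, and each was higher in the APAP groups. As a description, the Pearson correlation of log2 CPM over the 12 livers was 0.85 for *Hif1a* and *Slc2a1* and 0.85 for *Hif1a* and *Adm*, and without WT APAP replicate 1 (n = 11 livers) it was 0.81 and 0.76. With the group means removed these pairs stood at 0.37 and 0.68, and without that liver at 0.0023 and -0.18, so the likeness of these 2 pairs within groups rested on it. *Adm* and *Slc2a1* stood at 0.79 with and without that liver. With the group means removed this pair was at 0.66, and at 0.69 without that liver, so its likeness within groups did not rest on it. *Vegfa* and *Egln3* stood at 0.68 (0.66 without that liver), and with the group means removed at 0.71 (0.36 without it). *Adm* and *Egln1* had an r of -0.71, which was -0.19 without that liver, and with the group means removed -0.76, which turned to 0.13. These values share livers, libraries and the treatment. Among 16509 genes, those most like *Hif1a* over the 12 livers were *Adamts1* (r = 0.99), *Gm5552* (0.98) and *Srf* (0.98), and those most like *Slc2a1* were *Efcab8* (0.95), *Gab2* (0.95) and *1700017B05Rik* (0.95). For *Vegfa* they were *Zfp418* (0.93), *Rnf149* (0.89) and *Vgf* (0.89), and for *Adm* *Isg20* (0.97), *Fst* (0.96) and *Otud1* (0.96). The nearest gene was *Zdhhc5* for *Egln1* (0.95), *Tmem64* for *Egln3* (0.90), *Glrx3* for *Bnip3* (0.94), *Gna13* for *Ankrd37* (0.93), *Cd79b* for *Hk2* (0.95) and *Zfp382* for *Pfkfb3* (0.88), each with n = 12 livers. Without WT APAP replicate 1, *Adm* had an r of 0.94 with *Isg20*, 0.89 with *Fst* and 0.88 with *Otud1*, and with the group means removed 0.63, 0.75 and 0.44, against 0.97, 0.95 and 0.95 over all 12 livers. None of the 10 genes was the nearest neighbour of another.

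The other parts of the oxygen-sensing machinery were read over both labels from a list of 13 genes that includes *Hif1a*, *Egln1* and *Egln3*. Of these, 4 were higher (*Hif1a*, *Cited2*, *Siah2* and *Arnt2*) and 0 lower, beside 14.0% and 11.4% of all genes. The median log2 fold change of the list was 0.47, and that of all genes 0.01. *Cited2*, which competes with HIF for its coactivator, was at 5.19 to 10.8 CPM in the 6 vehicle livers and 21.1 to 50.7 CPM in the 6 APAP livers, and rose by 2.01 ± 0.22 on the log2 scale (edgeR's adjusted p = 5.89e-05). *Siah2*, a ubiquitin ligase that removes the prolyl hydroxylases, was at 9.32 to 11.7 CPM and 18.6 to 22.2 CPM and rose by 0.90 ± 0.09 (2.18e-05). Neither group overlapped. *Arnt2*, a partner subunit of HIF that is mainly neuronal, had 0 counts in all 6 vehicle livers and 0, 3 and 22 counts in the WT APAP livers and 15, 0 and 24 in the APAP livers labelled KO, so its call rests on few reads. That call held in 3 of the 6 alternative settings that gave a value and with 4 of the 12 livers left out in turn. *Siah1a*, the ligase related to *Siah2*, had a log2 fold change of 0.58 ± 0.21 over both labels (edgeR's adjusted p = 0.0602) and was higher under the KO label alone (1.10 ± 0.21, 0.00841). Within WT, 2 of 12 genes of this list were higher (1.62% of all genes), and under the KO label 4 of 12 (13.0% of all genes), with 0 lower in either.

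Of 32 HIF target genes outside glycolysis, which include *Vegfa*, *Adm*, *Egln3*, *Bnip3* and *Ankrd37*, 28 were tested over both labels. Among these 28, 10 were higher and 1 lower (median 0.55), beside 14.0% and 11.4% of all genes. *Hmox1*, the heme-degrading enzyme that many stress pathways also raise, was at 10.6 to 48.3 CPM in the 6 vehicle livers and 490 to 1184 CPM in the 6 APAP livers (log2 fold change 5.37 ± 0.43, edgeR's adjusted p = 4.87e-06). It lay far above the vehicle range in every APAP liver. *Ndrg1*, a stress-responsive gene, was at 6.94 to 16.6 CPM and 18.1 to 42.8 CPM (1.78 ± 0.23, 0.000207), and *Kdm3a*, a histone demethylase, at 15.3 to 17.2 CPM and 24.8 to 36.2 CPM (0.86 ± 0.10, 8.14e-05). Others that were higher included *Plin2*, *Hilpda*, *Ero1l* and *Pfkfb4*. The call of *Pfkfb4* held in 4 of 7 alternative settings and in 6 of 12 fits without 1 liver. *Pfkfb4* is also in the glycolysis list and its ubiquitous or inducible part below, so the counts of these lists are not separate. *Hilpda*, a lipid droplet protein, was at 208 CPM in WT APAP replicate 1 and at 3.51 to 15.995 CPM in the other APAP livers, and its log2 fold change of 3.82 ran from 2.06 to 4.16 with 1 liver left out, called each time by edgeR. The 1 that was lower was *Pdk1*, a kinase that inhibits pyruvate dehydrogenase, at -0.93 ± 0.19 (edgeR's adjusted p = 0.00386). Within WT, 2 of 28 were higher and 1 lower (1.62% and 0.427% of all genes), and under the KO label 10 of 27 were higher and 0 lower (13.0% and 9.60%), so that calls were fewer in WT over the whole table too. *Epo* had no counts in any liver.

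**Figure D4:**
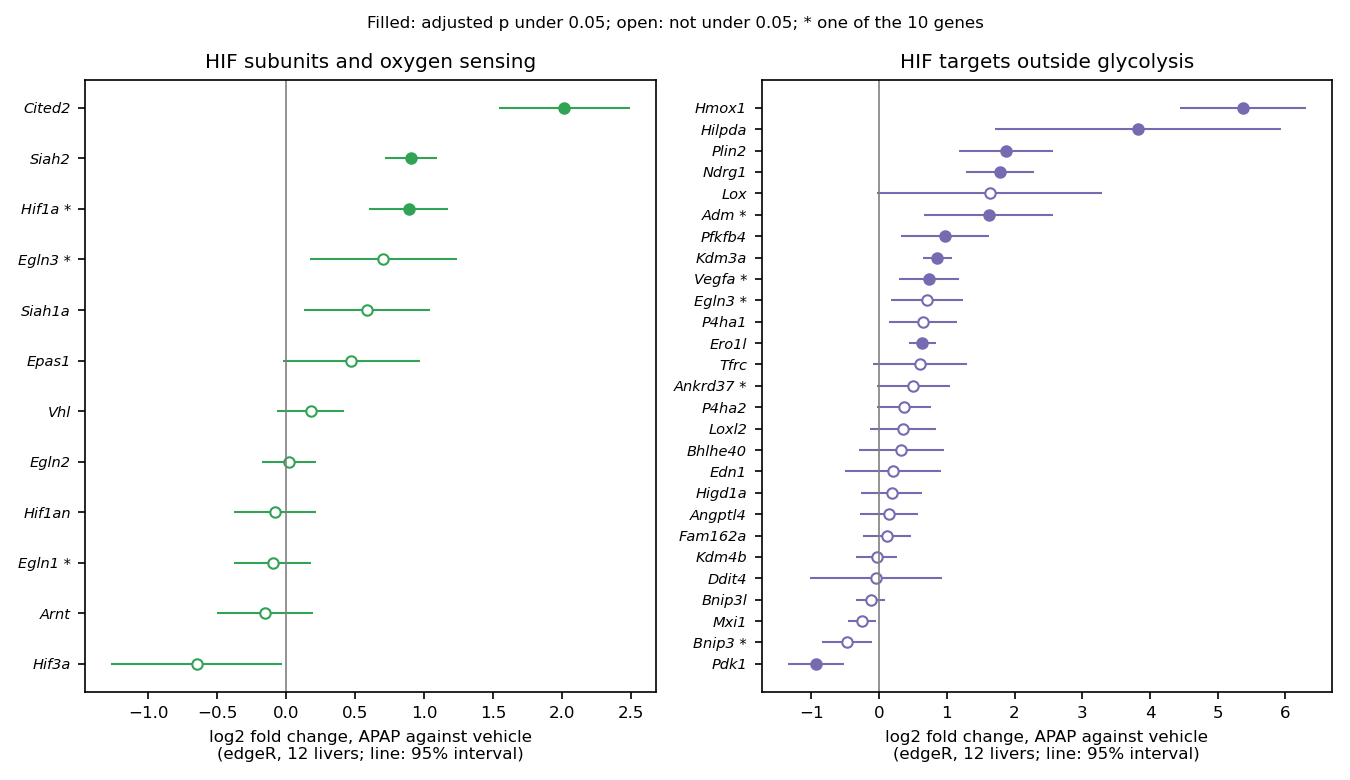
Log2 fold change over both labels with 95% intervals (horizontal axis) for the HIF subunits and oxygen-sensing genes (left) and for the HIF targets outside glycolysis (right), filled for an adjusted p under 0.05 and with an asterisk for the 10 genes. *Cited2*, *Siah2* and *Hif1a* are filled on the left, where *Arnt2* is left out because its vehicle livers had 0 counts, and *Hmox1* lies above 5 on the right, where 1 gene is not shown.

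Of 31 genes of glucose uptake and glycolysis, 30 were tested over both labels, 7 were higher and 4 lower, beside 14.0% and 11.4% of all genes, so that the lower calls were near the share of the whole table. The median was -0.06. *Slc16a1*, the monocarboxylate transporter that carries lactate, was at 17.9 to 24.5 CPM in vehicle livers and 38.0 to 51.3 CPM in APAP livers (log2 fold change 1.04 ± 0.11, edgeR's adjusted p = 5.17e-05). *Aldoa*, the aldolase of muscle and most tissues, was at 66.1 to 95.1 CPM and 143 to 206 CPM (0.96 ± 0.13, 0.000335). *Pfkfb1*, the liver form of the bifunctional enzyme to which *Pfkfb3* belongs, was at 30.9 to 49.4 CPM and 9.55 to 23.8 CPM and fell by 1.32 on the log2 scale (SE 0.22, 0.00109). *Aldoc*, the brain aldolase, fell by 1.15 (SE 0.21, 0.00182). None of these 4 genes overlapped between vehicle and APAP livers. Within WT, 2 of 30 were higher and 0 lower (1.62% and 0.427% of all genes), and under the KO label 4 were higher and 4 lower (13.0% and 9.60%), close to the share of all genes.

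Split by isoform, the liver forms and the widely expressed forms stood apart in their medians, as a description of 2 chosen lists. Of 6 liver isoforms, 2 were lower (*Pfkfb1* and *Slc2a2*), with a median of -0.53. *Slc2a2*, the hepatocyte transporter GLUT2, was at 93.5 to 273 CPM in vehicle livers and 61.6 to 119 CPM in APAP livers and fell by 1.07 (SE 0.23, edgeR's adjusted p = 0.0051), with overlap between the groups. Of 12 ubiquitous or inducible isoforms, 5 were higher (*Slc2a1*, *Aldoa*, *Pkm*, *Pfkp* and *Pfkfb4*) and 1 lower (*Aldoc*), with a median of 0.87. Over all genes 14.0% were higher and 11.4% lower. *Pkm*, the pyruvate kinase of non-hepatic tissue, was at 8.80 to 12.3 CPM and 12.7 to 31.7 CPM (1.04 ± 0.22, 0.00454). Named after their values were seen, *Gapdh* (0.01, adjusted p = 0.943), *Pgk1* (-0.13, 0.457) and *Ldha* (0.16, 0.553), which code for abundant shared enzymes of glycolysis, did not pass edgeR's test. At the exit to the mitochondria, 3 of 11 genes of pyruvate dehydrogenase control were higher and 4 lower, beside 14.0% and 11.4% of all genes. The higher ones were *Pdk4*, *Pdhb* and *Pdp1*, and the lower ones *Pdha1*, *Pdk1*, *Pdk2* and *Pdp2*. *Pdk4*, the kinase raised by fasting, was at 2.32 to 9.17 CPM and 15.2 to 22.3 CPM (2.25 ± 0.28, edgeR's adjusted p = 0.000143), while *Pdp2*, a phosphatase of the same complex, fell by 1.13 (SE 0.19, 0.00115) and *Pdk2* by 1.17 (SE 0.21, 0.00169). The other phosphatase, *Pdp1*, went the other way from *Pdp2*, at 0.470 to 0.774 CPM in vehicle livers and 1.07 to 1.65 CPM in APAP livers.

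**Figure D5:**
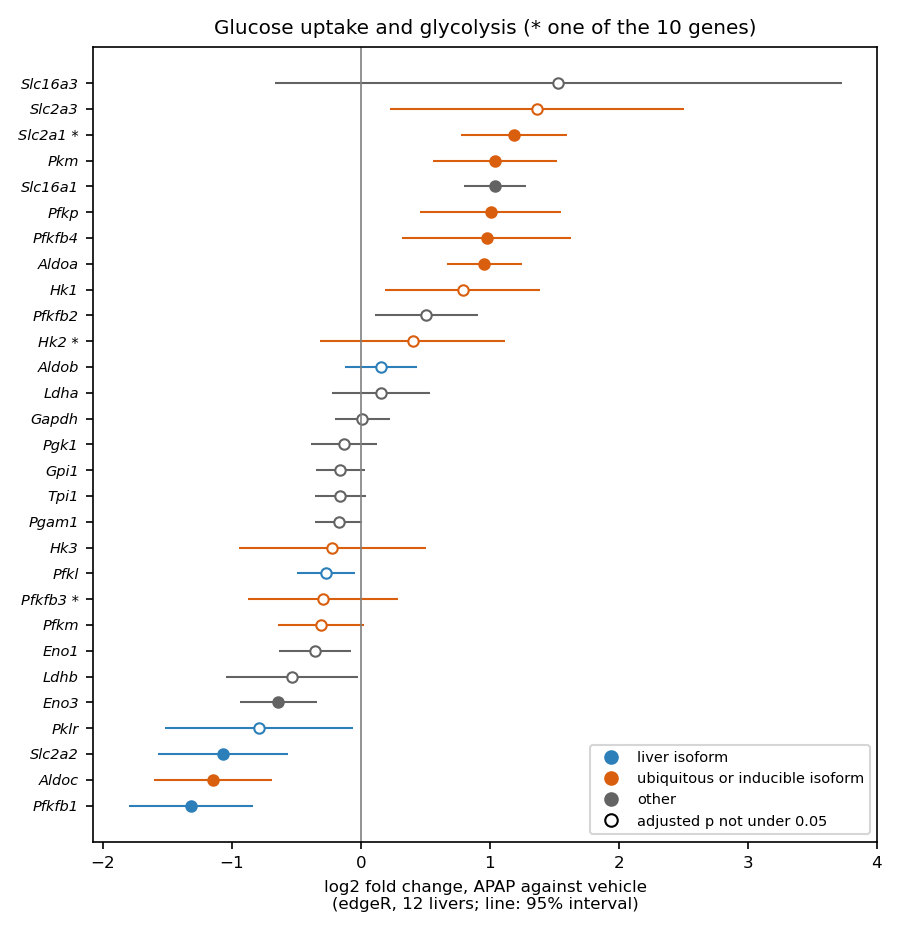
Log2 fold change over both labels with 95% intervals (horizontal axis) for the tested genes of glucose uptake and glycolysis except 1 that is not shown, blue for liver isoforms, orange for ubiquitous or inducible isoforms and grey for the rest, filled for an adjusted p under 0.05 and with an asterisk for the 10 genes. *Slc2a1* is filled at 1.19, *Hk2* and *Pfkfb3* are open with intervals that include 0, and *Slc2a2*, *Pfkfb1*, *Aldoc* and *Eno3* are filled below 0.

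The reads of some of these genes could be shared with neighbours. In the GENCODE annotation, 7 of the 10 genes overlap another gene on the opposite strand, and whether the counting used strand is not given in the sources used here, although the library kit marks it. *Ankrd37*, with 13 to 42 counts per liver, overlaps *Ufsp2*, which had 1492 to 1983, and *Lrp2bp*, which had 8 to 34, so its values are uncertain. The antisense neighbours of *Hif1a* and *Pfkfb3* in the table, *Gm15283* and *Gm10851*, had at most 2 and 6 counts, against at least 1131 and 656 for the genes themselves.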

How the data were processed

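Liver RNA of 12 mice (4 groups of 3) was analysed from 1 table. Per the labels, a stranded poly-A kit was used. The submitters' processing notes name mm10 and, with no role given, FastQC 0.11.7, Trimmomatic 0.38, HISAT2 2.1.0, Bowtie2 2.3.4.1 and StringTie 2.1.3b. The authors deposited raw read counts per gene, not normalized, beside FPKM and TPM values that they had scaled by length and depth. Libraries came from separate livers by their labels.

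Counts were filtered with filterByExpr, scaled by TMM and fitted in edgeR 4.0.16 with its quasi-likelihood test (R 4.3.3) on the 6 livers compared, and for both labels and the interaction on all 12. P-values were adjusted by Benjamini-Hochberg over all genes, with a threshold of 0.05. CPM values use TMM library sizes, log2 CPM a prior count of 2, and intervals cover 95%. The script was tested on simulated data. Alternatives were DESeq2 1.42.0 (size factors, Wald test), no filter, at least 10 counts in every library, all 12 livers in one fit, a replicate block, each liver left out, and limma 3.58.1 on TPM after quantile normalization, in log2 with a pseudocount of 1 or of 0.1.

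The 10 genes and the lists were chosen with earlier results of these data known. Of each pathway list, at most 4 other genes with the smallest p over both labels are named, plus genes that a small count refers to. The genes most like each of the 10 are the 3 with the highest Pearson r. Promoters and coordinates are RefSeq's GRCm38.p6, the build of mm10. The values of 2 list genes are not reported here, although the counts and medians of their lists include them.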

Additional observations from a re-analysis of the deposited data

Results flagged for a closer look

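Among the 6 APAP livers, the *Adm* level of WT APAP replicate 1 (9.40 CPM) was far from the others: the next was 2.80 CPM and the lowest 1.61 CPM, so the gap took up 0.847 of the whole range, above Dixon's 95% critical value for 6 samples. Of the 20 sets of 6 livers examined (10 genes with APAP and with vehicle), this was the only one past that value, and chance passes it in about 1 in 20. It is the liver with the high erythroid and neutrophil markers, and their part in this value was not tested.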

How the results depend on the processing

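The rises of *Hif1a* and *Slc2a1* under the KO label and over both labels passed in each alternative and with any 1 liver left out. Of the 10 genes, the number that passed in WT went from 0 to 3 with DESeq2's Wald test and to 3 in the fit of all 12 livers, and was 0 to 1 with a liver left out. Under the KO label it went from 4 to 2 in the fit of all 12 livers, was 3 with the replicate block and 5 with limma, and was 2 to 4 with a liver left out. Over both labels it ran from 3 (limma at the larger pseudocount) to 5 (DESeq2's size factors or Wald test, or at least 10 counts) and was 3 to 6 with a liver left out. It stayed at 0 in both genotype comparisons and the interaction. The cause was not tested.

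Signs turned only for genes that did not pass (log2 fold change). With limma at the larger and then the smaller pseudocount, *Bnip3* was at -0.042 and -0.042 (WT against the KO label after APAP) and -0.12 and -0.12 (interaction), *Hif1a* at -0.011 and -0.013 and *Hk2* at 0.00013 and 0.026 (labels with vehicle), and *Vegfa* at -0.028 and -0.031 (interaction). *Pfkfb3* in WT was at -0.0067 with DESeq2's size factors, -0.0065 with its Wald test and -0.00038 without a filter. *Hk2* under the KO label was at 0.0013 with the replicate block and 0.0088 with limma at the smaller pseudocount.

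With 1 liver left out, the ranges that crossed 0 were -0.27 to 0.66 for *Pfkfb3* in WT, -0.30 to 0.36 for *Hk2* under the KO label and -0.15 to 0.0085 for *Egln1* over both labels. After APAP, between labels, they were -0.43 to 1.31 for *Adm*, -0.32 to 0.0037 for *Egln1*, -0.27 to 0.35 for *Egln3*, -0.067 to 0.42 for *Bnip3*, -0.23 to 0.20 for *Ankrd37*, -0.12 to 0.30 for *Slc2a1* and -0.34 to 0.14 for *Pfkfb3*. With vehicle they were -0.098 to 0.11 for *Hif1a* and -0.54 to 0.10 for *Hk2*. For the interaction they were -0.27 to 0.44 for *Vegfa*, -0.0052 to 1.75 for *Adm* and -0.19 to 0.33 for *Bnip3*.

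Over all genes, the calls in WT (255 higher, 67 lower) became 877 and 536 with the Wald test, 968 and 555 in the fit of all 12 livers and 61 and 1 with the replicate block, and those under the KO label (2034 and 1504) became 1405 and 844 in the fit of all 12 livers. Leaving out 1 liver left 41 and 0 in WT without vehicle replicate 3, 42 and 1 without vehicle replicate 1, 67 and 1 without APAP replicate 3 and 316 and 126 without APAP replicate 2, and under the KO label 1261 and 734 without vehicle replicate 2 and 1320 and 751 without APAP replicate 3, with lower calls of 937 and 946 without vehicle replicates 3 and 1, so the shares of all genes move too. Calls between labels after APAP (2 higher in WT, 3 lower) became 21 and 8 with the Wald test, 0 and 1 with at least 10 counts in every library, 0 and 0 in the fit of all 12 livers and 1 and 0 with the block. With vehicle (2 and 2) they became 62 and 75 with the Wald test and 0 and 0 in the fit of all 12 livers and with the block, and the interaction (0) became 7 and 2 with the Wald test. The replicate numbers did not pair the livers (correlations of same-numbered livers from -0.264 to 0.0491). The correlations without WT APAP replicate 1 were added after seeing the data. Depth limits *Ankrd37*, *Hk2* and *Adm* most.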
